A study of Mus musculus with 4 samples.

Results

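H3K27ac HiChIP counts were higher in D2 than in B6 mouse embryonic stem cells in 17 windows of 1 Mb, and these windows, their anchors and their genes are described here in each of the 4 libraries. Each row of the deposited table, a pair of genomic intervals (anchors) with its read-pair counts, was placed in the 1 Mb window that holds the midpoint of the span from the start of its first anchor to the end of its second. Counts were summed per window and library and divided by the library's total. A window was kept when it had at least 1000 counts over the 4 libraries and when the log2 ratio of the mean D2 share to the mean B6 share was above 0.6. Of 2397 windows with a row, 1397 had at least 1000 counts, and 17 of these (1.22%) were kept, on 12 of the 19 autosomes. The windows were chosen by the measured D2 and B6 counts themselves, so these values are given as a description and carry no test.

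The study compared embryonic stem cell lines of 2 inbred strains, DBA/2J, called D2, and C57BL/6J, called B6, with no other genotype named. B6 replicate 1 was the line B6 4-1, B6 replicate 2 the line B6 5-1, D2 replicate 1 the line D2 2-9 and D2 replicate 2 the line D2 5-5, with 1 library per line. All 4 were grown with serum, LIF and the inhibitors PD0325901 and CHIR99021, fixed with 1% formaldehyde for 10 min and cut with DpnII, and the labels name no other treatment. With 2 lines per strain, a difference between strains is read against the spread of 2 libraries on each side. The library name of D2 replicate 1 ends in 10cyc and the other 3 end in 8cyc, a mark that the labels do not explain.

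HiChIP joins DNA ends that lie close together in fixed nuclei and then enriches the joined fragments with an antibody, here against H3K27ac, the acetylation of lysine 27 on histone H3 that marks active promoters and enhancers. A count for a pair of anchors therefore depends on both the contact between them and the amount of the mark on them, and the table does not separate them. In embryonic stem cells the mark lies mainly at promoters of expressed genes and at enhancers, and promoters of broadly expressed genes are typically dense in CpG, the dinucleotide that the rest of the mammalian genome has largely lost.

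The pair of anchors with the most counts in the 17 windows lay on chromosome 2, where an intergenic anchor at chr2:17961627-17993769 was joined to an anchor at chr2:17994943-18035276 over the start of H2al2a, a testis histone variant gene, and of the long noncoding RNA A930004D18Rik (GRCm38, mm10). The boundaries of these anchors are shown because every anchor in the table begins and ends at the DpnII site, and here only 1174 bp separate them. Each line gives 40 bases of the plus strand of GRCm38 around a boundary, at chr2:17961609-17961648, chr2:17993751-17993790, chr2:17994925-17994964 and chr2:18035258-18035297, with the DpnII site in capitals.
first anchor, left boundary: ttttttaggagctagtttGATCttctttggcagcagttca
first anchor, right boundary: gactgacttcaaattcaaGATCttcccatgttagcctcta
second anchor, left boundary: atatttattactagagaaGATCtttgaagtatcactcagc
second anchor, right boundary: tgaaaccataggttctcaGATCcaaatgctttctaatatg

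With CpG in capitals, the promoters of 4 genes are shown because their start-site anchors took part in loops with more D2 than B6 counts. They are the 300 bp from 250 before to 50 after the start of the RefSeq entry in GRCm38.p6, read 5′ to 3′ on the gene's strand. Ncoa7, for a nuclear receptor coactivator, and Hint3, for a nucleotide hydrolase, lie on the minus strand at chr10:30803277-30803576 and chr10:30618317-30618616. Serbp1, for an mRNA-binding protein, lies on the plus strand at chr6:67266729-67267028, and H2al2a on the minus strand at chr2:17996909-17997208.
Ncoa7: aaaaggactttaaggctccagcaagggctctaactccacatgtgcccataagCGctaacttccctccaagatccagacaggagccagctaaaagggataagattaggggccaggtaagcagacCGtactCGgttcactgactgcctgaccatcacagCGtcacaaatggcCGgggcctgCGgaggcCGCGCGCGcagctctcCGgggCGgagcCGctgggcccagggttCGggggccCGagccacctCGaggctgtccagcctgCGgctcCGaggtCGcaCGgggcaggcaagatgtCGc
Hint3: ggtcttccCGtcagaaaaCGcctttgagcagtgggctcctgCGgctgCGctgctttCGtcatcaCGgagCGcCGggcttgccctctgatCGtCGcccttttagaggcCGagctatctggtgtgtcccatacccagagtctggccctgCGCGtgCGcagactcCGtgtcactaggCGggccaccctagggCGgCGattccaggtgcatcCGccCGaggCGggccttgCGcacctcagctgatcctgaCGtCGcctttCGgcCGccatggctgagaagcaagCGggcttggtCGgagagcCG
Serbp1: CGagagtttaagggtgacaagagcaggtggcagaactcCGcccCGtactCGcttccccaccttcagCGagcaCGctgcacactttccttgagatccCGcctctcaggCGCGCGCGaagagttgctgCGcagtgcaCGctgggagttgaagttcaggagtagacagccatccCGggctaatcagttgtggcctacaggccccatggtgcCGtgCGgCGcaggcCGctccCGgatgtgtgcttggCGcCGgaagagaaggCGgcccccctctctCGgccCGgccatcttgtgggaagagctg
H2al2a: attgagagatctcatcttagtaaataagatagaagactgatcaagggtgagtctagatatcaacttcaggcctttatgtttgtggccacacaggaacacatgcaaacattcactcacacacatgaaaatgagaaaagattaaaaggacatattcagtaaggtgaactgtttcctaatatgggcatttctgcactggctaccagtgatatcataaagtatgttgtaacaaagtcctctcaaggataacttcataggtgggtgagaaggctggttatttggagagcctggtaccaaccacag

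The Ncoa7, Hint3 and Serbp1 promoters held 21, 29 and 24 CpG, against a median of 7 over the 31396 promoters of the same length in the RefSeq table. The H2al2a promoter held 0 CpG, and 5.25% of all promoters held as few. Of the 56 protein-coding genes of the windows with an anchor over a start site, 42 matched an entry of the table, with a median of 19 CpG (range 0 to 52), and 37 of these 42 lay above the median of all promoters. Their median GC content was 59.8%, against 53% for all promoters. The GC box GGGCGG, searched on both strands and free to overlap CpG, was found in 26 of the 42, and in 36.0% of all promoters. The letters TATAAA, on either strand, were found in 3 of the 42 and in 13.6% of all promoters. Since the 42 are genes with an anchor and the table holds all genes, these shares set promoters at anchors beside promoters in general.

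The libraries differed little in depth, with 2908329 counts for B6 replicate 1, 2800847 for B6 replicate 2, 2767882 for D2 replicate 1 and 2944258 for D2 replicate 2. Anchors over the start sites of the embryonic stem cell markers were present for 8 of 10 genes, Esrrb and Tfcp2l1 being without one, and their summed CPM (counts scaled to a common library total, as defined with the windows) reached 1905 and 2078 for the B6 libraries, 3012 for D2 replicate 1 and 1989 for D2 replicate 2. For feeder fibroblast markers 2 of 6 genes had an anchor, with Col1a1, Col1a2, Twist2 and Postn without one, and the sum was 45.0 to 49.5 over the 4 libraries. For primitive endoderm 6 of 6 genes had an anchor (121 to 136) and for trophoblast 4 of 6 (239 to 267), Elf5 and Hand1 being without one. None of these marker genes starts in the 17 windows, and the part of other cell types in the values of the windows was not tested.

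The 17 windows together held 51032 counts, 0.447% of all. As CPM, the share of the library's total counts times 1e6, they held 3130 in B6 replicate 1, 3540 in B6 replicate 2, 6199 in D2 replicate 1 and 5045 in D2 replicate 2. Both D2 libraries were above both B6 libraries in all 17 windows, and this order was seen in 40.5% of the 1397 windows. The log2 ratio ran from 0.60 to 0.98 with a median of 0.76, which is 1.52 to 1.97-fold with a median of 1.70-fold. By edgeR's quasi-likelihood test over all 1397 windows, 17 of the 17 passed an adjusted p under 0.05 as higher in D2, beside 15.4% of all windows. Nothing is read from these counts, since the same contrast chose the windows. Each window is named here after the protein-coding gene whose start-site anchor held the most counts among the rows placed in that window; an anchor's rows in other windows do not enter.

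**Figure D1:**
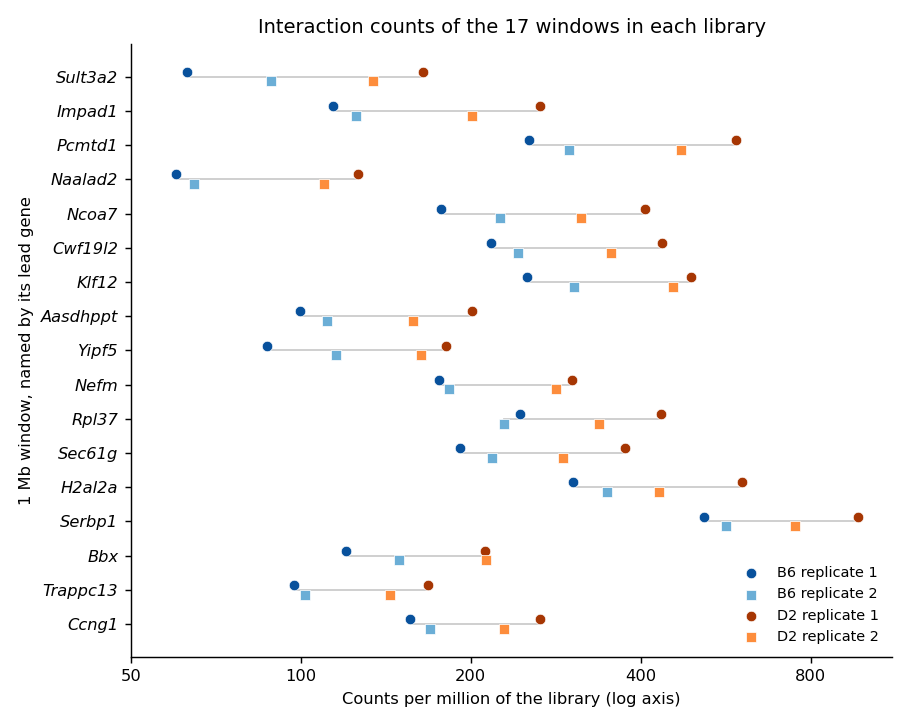
CPM (counts per 1e6 counts of the library, log axis) of the 17 windows, from the highest to the lowest log2 ratio, with 1 point per library. In 16 windows the order from left to right begins with B6 replicate 1, in 16 it ends with D2 replicate 1, and in none do the B6 and D2 libraries overlap.

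The 4 highest log2 ratios were 0.92 to 0.98. The Sult3a2 window (chromosome 10, 33 to 34 Mb), named for a sulfotransferase gene, had 62.9 and 88.5 CPM in B6 and 165 and 134 in D2, a log2 ratio of 0.98. The Impad1 window (chromosome 4, 4 to 5 Mb), named for a phosphatase of the Golgi, had 114 and 125 in B6 and 266 and 201 in D2 (0.97). In both, the lower D2 library was well above the higher B6 library. The Pcmtd1 window (chromosome 1, 7 to 8 Mb), with 1 protein-coding gene, for a protein with a repair methyltransferase domain, had 254 and 298 in B6 and 591 and 472 in D2 (0.94). The Naalad2 window (chromosome 9, 18 to 19 Mb), which also holds a cluster of olfactory receptor genes, had 60.2 and 64.6 in B6 and 126 and 110 in D2 (0.92). This was the window with the fewest counts, 1030 over the 4 libraries.

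The next 5 windows had log2 ratios of 0.76 to 0.84. The Ncoa7 window (chromosome 10, 30 to 31 Mb) had 177 and 225 in B6 and 407 and 314 in D2 (0.84). The Cwf19l2 window (chromosome 9, 3 to 4 Mb), named for a spliceosome-associated gene, had 217 and 242 in B6 and 437 and 355 in D2 (0.78). It borders the Aasdhppt window (chromosome 9, 4 to 5 Mb), named for a phosphopantetheinyl transferase, which had 99.7 and 111 in B6 and 201 and 158 in D2 (0.77). These 2 windows are not independent of each other, as 28 anchors took part in rows of both, of 34 in the first and 41 in the second. The Klf12 window (chromosome 14, 100 to 101 Mb), named for a Krüppel-like transcription factor, had 252 and 305 in B6 and 492 and 457 in D2 (0.77). The Yipf5 window (chromosome 18, 40 to 41 Mb), named for a membrane protein of the early secretory pathway, had 87.0 and 115 in B6 and 181 and 163 in D2 (0.76). Klf12 and Yipf5 had D2 libraries that lay closer together than their B6 libraries on the log2 scale.

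Log2 ratios of 0.67 to 0.71 were found in 5 windows. The Nefm window (chromosome 14, 68 to 69 Mb), named for a neurofilament subunit, had 176 and 183 in B6 and 302 and 284 in D2 (0.71), the smallest spread between replicates of the 17 (pooled SD 0.05 on the log2 scale). The Rpl37 window (chromosome 15, 5 to 6 Mb), named for a protein of the large ribosomal subunit, had 244.8 and 229.2 in B6 and 435 and 338 in D2 (0.70). The Sec61g window (chromosome 11, 16 to 17 Mb), named for a subunit of the channel that passes new proteins into the endoplasmic reticulum, had 192 and 218 in B6 and 375 and 291 in D2 (0.70). Rpl37 was the window in which B6 replicate 2, not replicate 1, was lowest. The H2al2a window (chromosome 2, 17 to 18 Mb) had 303 and 349 in B6 and 606 and 432 in D2 (0.67). The Serbp1 window (chromosome 6, 67 to 68 Mb) had the most counts, 7989, with 518 and 566 in B6 and 972 and 750 in D2 (0.67). In both, D2 replicate 1 was well above D2 replicate 2.

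The last windows were those just inside the threshold. The Bbx window (chromosome 16, 50 to 51 Mb), named for an HMG-box protein, had 120 and 149 in B6 and 212 and 213 in D2 (0.66). The Trappc13 window (chromosome 13, 104 to 105 Mb), named for a subunit of a vesicle tethering complex, had 97.3 and 102 in B6 and 168 and 144 in D2 (0.65). The Ccng1 window (chromosome 11, 40 to 41 Mb), named for cyclin G1, had 156 and 170 in B6 and 265.2 and 229.3 in D2 (0.60). Just outside lay chromosome 1, 65 to 66 Mb, with a cluster of crystallin genes (0.59, 3422 counts), chromosome 4, 62 to 63 Mb (0.58, 4745 counts), and chromosome 10, 11 to 12 Mb (0.58, 1771 counts). A further 75 windows were above 0.6 but under 1000 counts, with a median of 66 counts and at most 989.

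The libraries did not contribute alike. D2 replicate 1 was the highest library in 16 of the 17 windows, with Bbx as the exception, and in 466 of all 1397. B6 replicate 1 was the lowest in 16, with Rpl37 as the exception, and in 508 of all 1397. The median log2 ratio of D2 replicate 1 to D2 replicate 2 was 0.30 in the 17 windows and -0.01 in all 1397, and that of B6 replicate 1 to B6 replicate 2 was -0.16 and -0.03. D2 replicate 1 against B6 replicate 1 thus gave a median log2 ratio of 1.00, and all 17 windows were above 0.6. D2 replicate 1 against B6 replicate 2 gave 0.80 (16 above 0.6), and D2 replicate 2 against B6 replicate 1 gave 0.71 (12 above 0.6). D2 replicate 2 against B6 replicate 2 gave 0.51, with 4 windows above 0.6, and the lowest of the 17 was 0.31. Over all 1397 windows the same 4 medians were 0.05, 0.01, 0.07 and 0.04.

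Windows were also chosen with 1 library per strain and read in the other library of each strain. The log2 threshold of that choice did not use the libraries read, but the minimum of 1000 counts used all 4 libraries. The replicate 1 libraries alone chose 50 windows at a median of 0.75. In the replicate 2 libraries these 50 had a median of 0.34, 48 were above 0 and 4 were above 0.6, while 56.7% of all windows were above 0. The replicate 2 libraries alone chose 7 windows at a median of 0.66. In the replicate 1 libraries these 7 had a median of 0.78, 7 were above 0 and 4 were above 0.6, while 56.0% of all windows were above 0. The direction was the same for 48 of the 50 and for 7 of the 7, and the size was smaller when replicate 1 chose and replicate 2 was read. The shares over all windows are not matched for GC content or other properties, and the cause of the shared direction was not tested. The replicate numbers in the labels are names of lines here and were used only to name libraries.

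The rows of the 17 windows were sparse. The windows held 5763 rows, each a pair of anchors that is called a loop here whatever its count, and 2153 of them (37.4%) had a single count. The 456 loops with at least 20 counts held 63.4% of the counts of the windows, and loops of that depth held 58.1% over the whole table. Rows for which the second value of the single-library files, taken as the loop caller's q-value, was under 0.01 numbered a median of 22 and 23 per window in the B6 libraries, 41 in D2 replicate 1 and 35 in D2 replicate 2. Over all 1397 windows they numbered a median of 73 and 72 in B6 against 67 and 70 in D2, so D2 replicate 1 had the highest median in the 17 windows and the lowest over all.

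Every kind of loop in the windows had more D2 counts. Loops joining 2 anchors over start sites, 460 rows with 10049 counts, had a summed log2 ratio of 0.99, from 1594 and 1771 counts in B6 and 3786 and 2898 in D2. Loops with 1 anchor over a start site, 2435 rows with 24875 counts, had 0.72, from 4503 and 4896 in B6 and 8297 and 7179 in D2. Loops with neither, 2868 rows with 16108 counts, had 0.66, from 3006 and 3249 in B6 and 5076 and 4777 in D2. Over the whole table the 3 kinds had 0.08, -0.02 and -0.11, in the same order, so the order of the kinds in the 17 windows was also that of the table. Loops without a start site took 31.6% of the counts in the windows and 19.1% in the table, and loops between 2 start sites took 19.7% and 37.2%.

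Summed over the windows, loops under 100 kb had a summed log2 ratio of 0.84 (5086 and 5438 counts in B6, 10098 and 8659 in D2), and loops of 100 kb or more had 0.64 (4017 and 4478 in B6, 7061 and 6195 in D2). The table as a whole had 0.08 and -0.07. The share of a window's counts at 100 kb or more was lower in D2 than in B6 in 14 of the 17 windows, with medians of 47.0% and 51.0% in the B6 libraries and 41.7% and 42.7% in the D2 libraries, and it was also lower in D2 in 1188 of all 1397. Window by window, short loops ran from 0.58 to 1.16 and long loops from 0.27 to 0.91, so that both classes were above 0 in each of the 17. Short loops had the higher summed ratio in 14 windows and long loops in 3, Cwf19l2 (0.58 short, 0.91 long), Rpl37 (0.69, 0.72) and Ccng1 (0.58, 0.70). Among single loops with at least 20 counts the order was the other way, with a median fitted log2 ratio of 0.76 under 100 kb and 0.91 at 100 kb or more.

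The difference was carried by many loops in most windows and by a few in some. The 5 loops with the largest gain in CPM held 25.7 to 89.0% of a window's gain (median 39.4%). The highest share was in the H2al2a window and the lowest in the Sult3a2 window. Without all rows of its busiest anchor, a window's log2 ratio was 0.33 to 0.90 (median 0.67), again with H2al2a lowest and with Naalad2 highest. Loops under 20 counts, which no single test reaches, had 0.10 to 0.85 (median 0.51). Rows with both anchors inside the window made up 41.2 to 96.9% of the counts and had 0.50 to 1.26 (median 0.77).

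Of the 456 loops with at least 20 counts, 416 had a fitted log2 ratio above 0 (51.1% of all 108034 loops tested did), with a median of 0.79 and quartiles of 0.37 and 1.19, against a median of 0.02 in all loops. In edgeR's quasi-likelihood test over all loops, 54 of the 456 passed an adjusted p under 0.05 as higher in D2, beside 0.492% of all, and 0 as lower, beside 0.957% of all. At an unadjusted p under 0.05 the same test gave 192 higher, beside 5.34% of all loops, and 0 lower, beside 6.4%. DESeq2, which left 378 of the 456 without an adjusted p, gave 6 higher, beside 0.037% of all, and 0 lower, beside 0.0518%. Both D2 libraries were above both B6 libraries in 297 of the 456, beside 23.8% of all loops, and below both in 9, beside 17.9%. The fitted ratios depended on the libraries. The median of 0.79 became 0.72 without B6 replicate 1, 0.90 without B6 replicate 2, 0.59 without D2 replicate 1 and 0.95 without D2 replicate 2. These values and counts belong to the contrast that chose the windows and are given as a description.

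**Figure D2:**
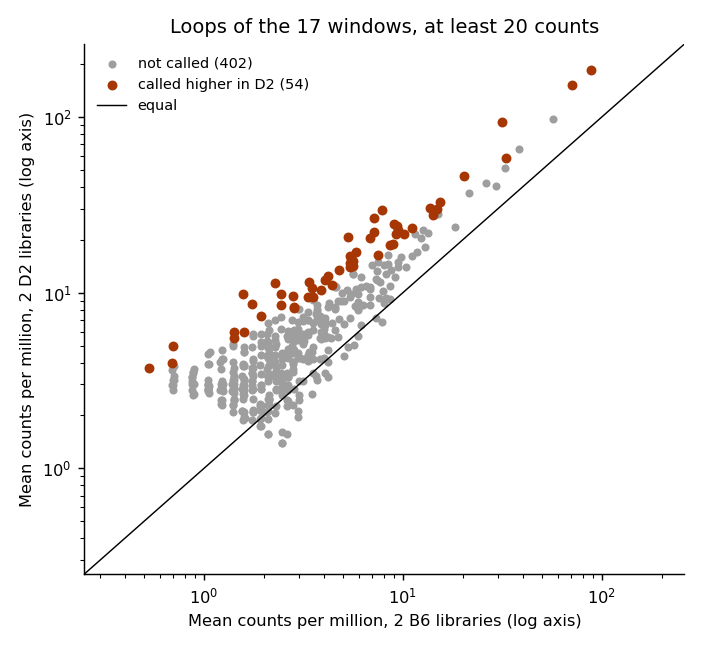
Mean CPM in the 2 D2 libraries against the 2 B6 libraries for the 456 loops of the 17 windows with at least 20 counts (both axes log, points on the line are equal). Most loops lie above the line over the whole range of counts, and the 54 that passed the edgeR test are spread over that range.

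The loops with most counts were short and joined neighbouring anchors. On chromosome 2 the loop whose boundaries are given, between the intergenic anchor and the H2al2a start, had 260 and 245 counts in B6 and 595 and 450 in D2, a fitted log2 ratio of 0.99 ± 0.22 (SE of the edgeR fit, 2 libraries per strain). It held 32.3% of the counts of its window. On chromosome 6 the loop between anchors over 2 start sites of Serbp1, chr6:67215327-67248641 and chr6:67261788-67303684, had 210 and 196 in B6 and 490 and 372 in D2 (1.02 ± 0.22). On chromosome 1 the loop between chr1:7084561-7133336 and chr1:7133902-7157113, both over start sites of Pcmtd1, had 84 and 96 in B6 and 279 and 257 in D2 (1.51 ± 0.23). In all 3 each D2 library was above each B6 library.

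Other top loops joined promoters of different genes. Nefl and Nefm, which encode the light and medium neurofilament subunits and are neighbours on chromosome 14, were joined by a loop with 29 and 16 counts in B6 and 101 and 66 in D2 (1.83 ± 0.28). It was the 1 loop of the 456 that also passed when each library was scaled to the counts of the window itself (1.18), beside 0.27% of all loops in either direction. Rpl37 and Prkaa1, the gene of a catalytic subunit of AMP-activated kinase, were joined by a loop with 70 and 53 in B6 and 114 and 97 in D2 (0.72 ± 0.24), which did not pass. Mat2b, for a regulatory subunit of methionine adenosyltransferase, was joined to the anchor over Ccng1, Hmmr and Nudcd2 by a loop with 101 and 85 in B6 and 173 and 116 in D2 (0.58 ± 0.23), which did not pass either. Hint3 and the upstream start of Ncoa7, whose promoters are given, were joined by a loop that was not the top one of its window. It had 1 and 2 counts in B6 and 13 and 8 in D2 (2.65 ± 0.74). With so few counts in B6 its ratio is uncertain, although it passed.

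Some top loops had no anchor over a protein-coding start site. In the Impad1 window the loop between chr4:4539180-4571899 and chr4:4617027-4625730, both intergenic, had 14 and 16 counts in B6 and 72 and 46 in D2 (1.90 ± 0.31). In the Naalad2 window the loop between the intergenic anchors chr9:18037161-18046654 and chr9:18075452-18082966 had 6 and 3 in B6 and 34 and 22 in D2 (2.54 ± 0.46). Both passed the test, and in both the D2 libraries were far above the B6 libraries. In the Klf12 window the intergenic loop between chr14:100308832-100322431 and chr14:100345597-100369357 had 18 and 33 in B6 and 83 and 57 in D2 (1.39 ± 0.28). In the Sult3a2 window the top loop lay within the body of Trdn, a muscle protein gene, with 6 and 7 in B6 and 18 and 22 in D2 (1.54 ± 0.46), and did not pass. The top loop of the Bbx window had 24 and 9 in B6 and 21 and 27 in D2 (0.47 ± 0.36), and there the strains overlapped. Of the top loops of the 17 windows, 12 passed, beside 0.492% of all loops. They were picked for their counts in windows picked for D2, and nothing is read from that count.

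Loops that ran the other way were few and thin. Of the 456 loops, 40 had a fitted log2 ratio at or below 0. The lowest, on chromosome 1 between chr1:6993607-6999649 and chr1:7042863-7055148, had 7 and 7 counts in B6 and 3 and 5 in D2 (-0.85 ± 0.65).

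The 375 anchors of the windows were more often intergenic than anchors in general. Of the 375, 84 (22.4%) lay over a start site, 99 (26.4%) over a gene body and 192 (51.2%) between genes. In all 1397 windows the shares were 35.8%, 38.3% and 25.9%. In the 81 windows with a log2 ratio below -0.6 they were 32.7%, 39.3% and 28.0%, close to those of all windows. The share varied among the 17, with 22 of 33 anchors between genes in the Pcmtd1 window, 17 of 20 in the Impad1 window and 5 of 19 in the Yipf5 window.

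Of the 350 anchors with at least 20 counts, 312 had a fitted log2 ratio above 0 (50.6% of all 51820 anchors tested did), with a median of 0.63 against 0.01 in all. By edgeR's quasi-likelihood test over all anchors, 128 passed as higher in D2, beside 2.67% of all, and 1 as lower, beside 7.08% of all. Both D2 libraries were above both B6 libraries in 242, beside 21.5% of all anchors, and below both in 13, beside 28.0%. The median of 0.63 became 0.54 without B6 replicate 1, 0.74 without B6 replicate 2, 0.50 without D2 replicate 1 and 0.76 without D2 replicate 2. DESeq2 called 50 higher, beside 0.459% of all anchors. Anchors that share rows share counts, so these numbers are not independent of each other or of the loops.

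Anchors over start sites had the highest ratios. Their median was 0.76 (84 tested, 48 called higher), against 0.54 for anchors over gene bodies (94 tested, 25 called) and 0.59 for intergenic anchors (172 tested, 55 called). The called shares were 57.1%, 26.6% and 32.0%, beside 4.00%, 1.30% and 2.85% of all anchors of these kinds. Start-site anchors also had the highest median over all anchors, 0.07 against -0.03 and -0.04. They were wider, with a median of 6966.5 bp in the windows against 3884.5 bp over gene bodies and 3892 bp between genes. Over all anchors these widths were 6052, 3644 and 3682 bp. The part of anchor width in the ratios and calls was not tested. Of the 38 anchors at or below 0, 29 were intergenic, 6 lay over gene bodies and 3 over start sites. The 1 anchor called lower lay at chr14:68415319-68418819, 114922 bp from Adam7, with 21 and 14 counts in B6 and 6 and 6 in D2 (-1.49 ± 0.47).

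Single anchors with many partners led several windows. The anchor over the Sult3a2 start (chr10:33784630-33801241) had 66 and 76 counts in B6 and 219 and 170 in D2 (1.50 ± 0.19). The intergenic anchor of the Impad1 window (chr4:4539180-4571899), 221456 bp from Impad1, had 120 and 137 in B6 and 409 and 307 in D2 (1.53 ± 0.18). Both lay well above the anchor over the Impad1 start itself, which had 59 and 67 in B6 and 95 and 81 in D2 (0.52 ± 0.20) and did not pass. In the Sec61g window the busiest anchor was also intergenic (chr11:16582798-16614097), 74314 bp from Sec61g, with 250 and 225 in B6 and 459 and 352 in D2 (0.82 ± 0.17). The anchor with the highest ratio, chr9:18075452-18082966 between genes in the Naalad2 window, had 23 and 17 in B6 and 108 and 56 in D2 (2.08 ± 0.29).

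The windows hold the starts of 86 protein-coding genes, of which 56 had an anchor over a start site. All 56 had a log2 ratio of start-site counts above 0, with a median of 0.72 and a range from 0.03 to 1.46, and in 46 both D2 libraries were above both B6 libraries. Of the 12669 protein-coding genes with such an anchor in all 1397 windows, 60.4% were above 0 and 34.8% had both D2 libraries above both B6 libraries, with a median of 0.08. The 56 are not separate measurements, since 11 of them fall in 5 groups with the same anchors, such as Hmmr, Nudcd2 and Ccng1. The 30 genes without an anchor include 9 Gm gene models at the start of chromosome 9 and 6 olfactory receptor genes of the Naalad2 window. Genes of the same window could differ widely, as the plot of gene ratios by window shows.

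**Figure D3:**
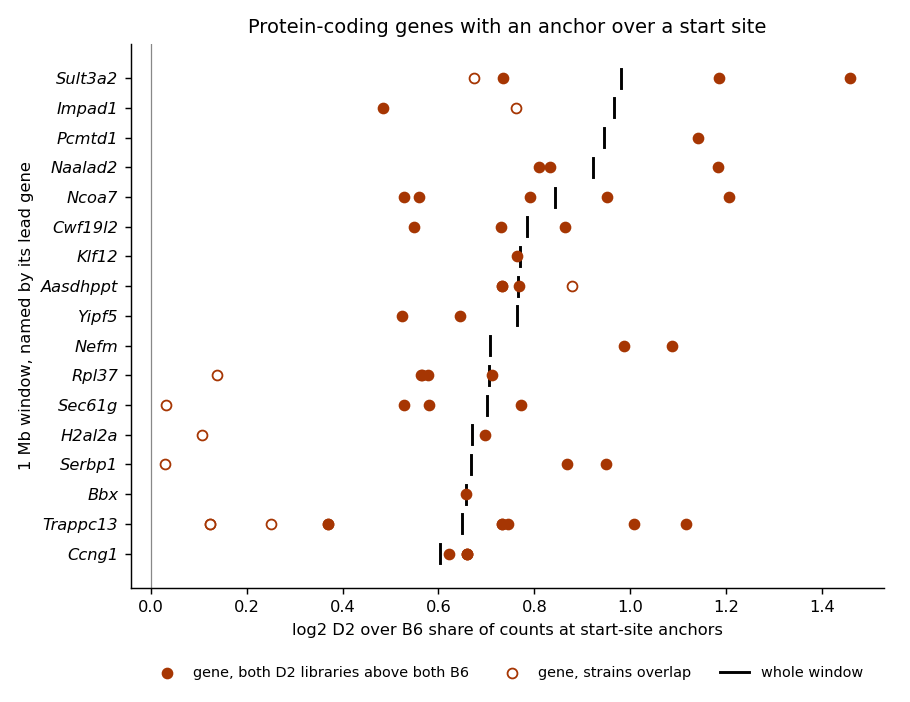
Log2 ratio of D2 to B6 at the start-site anchors of each protein-coding gene with an anchor (points), by window, with the ratio of the whole window (bar). All 56 points lie to the right of 0, from 0.03 to 1.46, and open points mark the 10 genes in which B6 and D2 libraries overlap.

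The genes that follow are grouped by known role for reading only: no list of these roles was tested, and the genes shown were chosen after their values were seen. Of genes with a role in transcription, Ncoa7 had 443 and 525 start-site counts in B6 and 1076 and 790 in D2 (log2 0.95). Klf12 had 279 and 296 in B6 and 539 and 434 in D2 (0.76), and Bbx had 65 and 112 in B6 and 149 and 131 in D2 (0.66). Hey2, a repressor downstream of Notch, had 19 and 34 in B6 and 49 and 43 in D2 (0.79), and the zinc finger gene Zfp558 had 12 and 14 in B6 and 31 and 28 in D2 (1.18). In these 5 genes the strains did not overlap.

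Of genes with a role in RNA processing or protein synthesis, Serbp1 had 1068 and 1113 in B6 and 2269 and 1692 in D2 (0.87). Rpl37 had 228 and 208 in B6 and 394 and 317 in D2 (0.71), and Sec61g had 163 and 182 in B6 and 339 and 248 in D2 (0.77). Cwc27, a spliceosome component, had 48 and 48 in B6 and 121 and 86 in D2 (1.12), while the tRNA methyltransferase gene Trmt11 had 56 and 73 in B6 and 100 and 86 in D2 (0.53). All 5 had separate strains, with D2 replicate 1 above D2 replicate 2 in each.

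Of genes of metabolism and signalling, Sult3a2 had the highest ratio of the 56, with 66 and 76 in B6 and 219 and 170 in D2 (1.46), and Pcmtd1 had 573 and 666 in B6 and 1489 and 1241 in D2 (1.14). Hint3 had 158 and 204 in B6 and 468 and 366 in D2 (1.21). Each of these lay above the ratio of its window. Prkaa1 had 240 and 203 in B6 and 342 and 311 in D2 (0.56), and Egfr, the epidermal growth factor receptor, had 43 and 54 in B6 and 73 and 67 in D2 (0.53). Ptger4, a prostaglandin E receptor in the Rpl37 window, had 68 and 58 in B6 and 61 and 78 in D2 (0.14), and its strains overlapped.

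Of genes known from the cell cycle, DNA damage or neurons, Gadd45a, a gene induced by DNA damage, had 145 and 155 in B6 and 340 and 236 in D2 (0.95). Ccng1, a target of p53, shared its anchor with Hmmr and Nudcd2 and had 320 and 305 in B6 and 526 and 459 in D2 (0.66). Cenpk, for a kinetochore protein, shared its anchor with Ppwd1 and had 26 and 50 in B6 and 46 and 37 in D2 (0.12), without a separation of the strains. Nefl had 120 and 121 in B6 and 270 and 241 in D2 (1.09), and Nefm had 219 and 218 in B6 and 468 and 396 in D2 (0.99). Penk, for the precursor of enkephalins, had 32 and 40 in B6 and 81 and 40 in D2 (0.76), so that D2 replicate 2 equalled the counts of B6 replicate 2.

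Low ratios were found at Vstm2a in the Sec61g window, with 27 and 23 counts in B6 and 26 and 25 in D2 (0.03), and at Nebl in the H2al2a window, with 38 and 28 in B6 and 33 and 38 in D2 (0.11). Both start sites showed no separation of the strains, inside windows whose own ratios were 0.70 and 0.67.

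None of the genes listed for naive pluripotency (16 in all windows), for formative and primed cells (6) or for early lineages (11) starts in the 17 windows, and none of 78 genes of the Etv, Fgf, Wnt, Fzd, Bmp, Smad and Nodal families does. Of the 292 annotated genes of the windows, 159 (54.5%) are Gm gene models, against 41.9% of the genes of all windows. Olfactory receptor genes, pseudogenes included, number 9 (3.08%, against 1.56%), and 1 is a zinc finger gene of the Zfp and Zscan kind (0.34%, against 1.02%).

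The rule did not use DNA sequence, and the windows shared a low GC content. It ran from 37.8 to 40.9%, with a median of 39.6% against 43.7% for the 1397 windows, and all 17 lay below that median. By deciles of GC content, 14 of the 17 were in the lowest decile and 3 in the next. The median log2 ratio of the deciles, from low to high GC, was 0.22, 0.17, 0.05, 0.09, 0.06, 0.00, 0.03, -0.01, 0.02 and -0.03. After the median of its decile was subtracted, a window's ratio was 0.39 to 0.76, and 5 of the 17 stayed above 0.6. Of the 205 windows with a GC content of at most 40.9%, 148 (72.2%) were above 0, 17 (8.29%) are the ones described and 6 were below -0.6. This limit is the highest GC content among the 17, so all 17 lie within it by construction. They are part of the 72.2%.

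**Figure D4:**
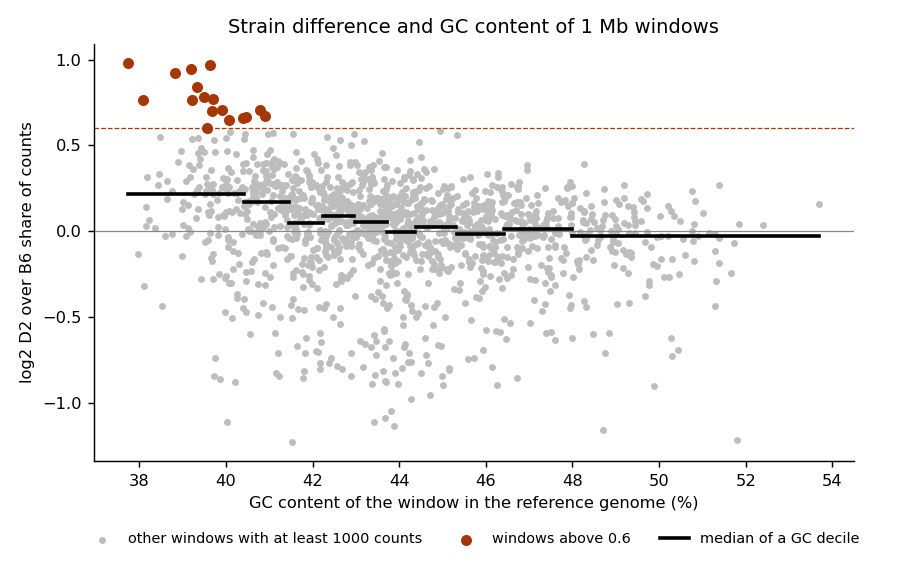
Log2 ratio of D2 to B6 against the GC content of the reference sequence for the 1397 windows with at least 1000 counts, with bars at the median of each decile of GC content. The 17 kept windows, above the dashed line at 0.6, lie between 37.8 and 40.9% GC, while windows below -0.6 lie over most of the range.

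The same property moved with differences between libraries of 1 strain. Over the 1397 windows, which share 4 libraries, Spearman's rho of GC content was -0.26 with the log2 ratio of D2 to B6, -0.30 with that of D2 replicate 1 to D2 replicate 2, and 0.50 with that of B6 replicate 1 to B6 replicate 2. In the lowest GC decile the median of D2 replicate 1 over D2 replicate 2 was 0.12 and that of B6 replicate 1 over B6 replicate 2 was -0.15, the directions seen in the 17 windows (0.30 and -0.16). In that decile the median of D2 replicate 1 over B6 replicate 1 was 0.34, and that of D2 replicate 2 over B6 replicate 2 was 0.05. The part of GC content in the strain difference of the 17 windows was not tested.

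Beside all 1397 windows, the 17 were poor in genes and rich in repeats. They held a median of 4 protein-coding genes (range 1 to 13) against 9, 6.79 CpG per kb against 10.0, and 40.4% masked repeats against 29.3%, with 16 of 17 above the median of all. The DpnII site was slightly more frequent, 2.62 per kb against 2.45, and the median width of an anchor was alike, 4163 bp against 4193.5 bp. They had fewer anchors (20 against 32), fewer rows (342 against 812) and fewer counts (2695 against 5376), and a single loop held more of their counts (7.85% against 4.89%). The 81 windows below -0.6 had a median of 9 protein-coding genes, 43.7% GC and 28.5% repeats. Windows of low GC content were themselves poor in genes. The median was 5 protein-coding genes in the lowest GC decile, which includes 14 of the 17, and 6 in the next. Of the 17 windows, 5 (29.4%) began within the first 8 Mb of a chromosome, where 64 of all 1397 (4.58%) did and where the median log2 ratio was 0.18. The limit of 8 Mb is also the end of the Pcmtd1 window, the last of these 5. The Cwf19l2 and Aasdhppt windows, both among the 5, are adjacent and share 28 anchors.

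A window next to the 17 that has at least 1000 counts and was not kept lies at or under 0.6 by the rule, so the values of the neighbours are a description. Of 21 adjacent windows with at least 500 counts that were not kept themselves, 16 were above 0, with a median of 0.24 and a range from -0.43 to 1.12. The median was 0.04 over all 1397 windows and 0.22 in the lowest GC decile, which includes 14 of the 17. Of the 205 windows with a GC content of at most 40.9%, the 17 included, 72.2% were above 0. The highest of the adjacent windows, chromosome 9, 17 to 18 Mb beside the Naalad2 window, had 602 counts and so missed the minimum. The lowest, beside the Klf12 window on the side of lower coordinates, had 4598 counts. At 2 Mb on either side the medians were -0.01 and 0.15. A kept window held a median of 51.2% of the counts of itself and its 2 neighbours (range 14.6 to 85.2%), against 37.7% for all windows.

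**Figure D5:**
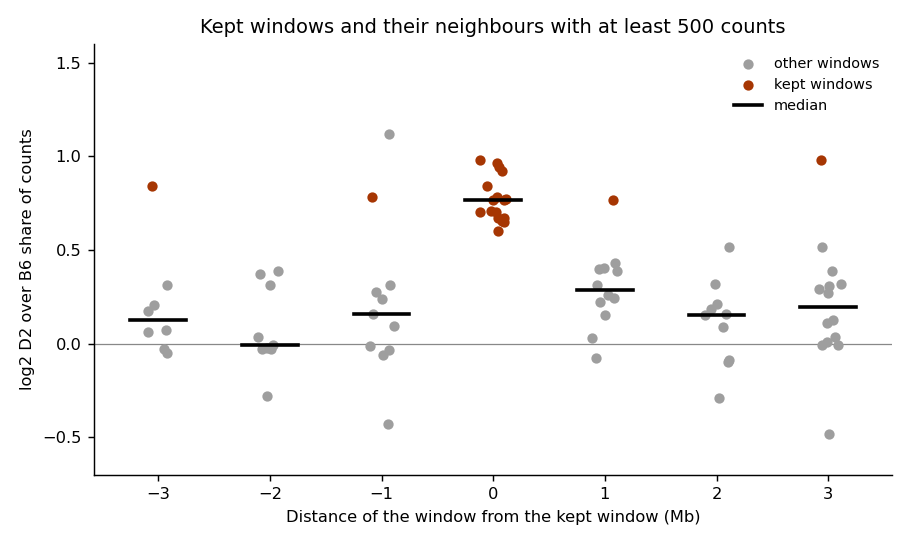
Log2 ratio of D2 to B6 of the 17 windows (at 0) and of windows with at least 500 counts up to 3 Mb away on either side, with bars at the medians, which include kept windows. The median at 0 (0.76) was set by the rule; the medians are 0.16 and 0.28 at 1 Mb and lie between -0.01 and 0.20 farther away.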

How the data were processed

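The 4 libraries were grouped by the strain in the labels, 2 for B6 and 2 for D2. The authors' deposited series table gives raw read-pair counts per pair of anchors, without normalization. The deposited single-library files repeat these counts and add a value from 0 to 1, taken as the loop caller's q-value; the caller and its filters are not given in the sources used here. HiC-Pro 2.11.4, DESeq2 and the build mm10 are named per the submitters' processing notes. How D2 reads were mapped is not given in the sources used here, and mm10 is the sequence of the B6 strain.

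All 56562 anchors began and ended at a GATC site of GRCm38. Genes and start sites came from GENCODE M21 and promoters from the RefSeq table for GRCm38.p6. An anchor was called a start-site anchor when it overlapped any annotated start, a gene body anchor when it otherwise overlapped a gene, and intergenic otherwise. Pairs lie on the 19 autosomes, from 5 kb apart, so sex chromosomes were not analysed here.

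CPM, the count per 1e6 counts of the library, used the library totals. edgeR's quasi-likelihood test (edgeR 4.0.16, limma 3.58.1, R 4.3.3) with TMM normalization and strain as the only term was fitted on all windows with at least 1000 counts and on all loops and anchors with at least 20, with Benjamini-Hochberg adjustment over each table. It was tested on simulated data. DESeq2 1.42.0 was an alternative. Tables were handled with pandas 2.3.3 and numpy 2.4.6 in Python 3.11.15. The naming rule took the 10 windows with the highest log2 ratio and the 5 with the most counts among the others, and in each its loop, anchor and start-site anchor with the most counts. Bbx and Trappc13, and other genes, loops and anchors, are named although the rule did not pick them, and were chosen after their values were seen. The windows and gene lists were chosen with earlier results of these data known. Each test measures the spread between 2 lines per strain. Counts of read pairs are not independent molecules, and at 20 counts a loop's ratio is imprecise, as its SE shows. The values of 1 gene are not reported here.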

Additional observations from a re-analysis of the deposited data

How the results depend on the processing

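All 17 stayed above 0 under each alternative that gives a value for the same window. This direction was partly given in advance, since the rule kept windows above 0.6 on the same counts. In each window every D2 library exceeded every B6 library, by a log2 ratio of at least 0.31. Leaving out libraries could therefore not reverse it. The number and identity of kept windows depended on the settings. The count of 17 became 11 with at least 2000 counts, 37 above a log2 of 0.5 and 5 above 0.8, 50 with windows of 0.5 Mb at a minimum of 500 counts and 7 with windows of 2 Mb at a minimum of 2000, settings that change width and minimum together. On a grid of 1 Mb windows shifted by 0.5 Mb, 19 windows were kept, and they overlapped 11 of the 17, so which windows are found depends on where the grid starts. It became 40 from rows with at least 20 counts only (10 of the 17 kept), 30 from rows under 100 kb (9 kept), 8 from rows of 100 kb or more (7 kept) and 10 without the rows of each window's busiest anchor (9 kept). With the replicate 1 libraries alone it was 50 and with the replicate 2 libraries alone 7 (4 kept). Leaving out 1 library gave 11 to 38, with 14 without B6 replicate 1, 30 without B6 replicate 2, 11 without D2 replicate 1 and 38 without D2 replicate 2. After seeing the data, more alternatives were added. Subtracting the median of the GC decile left 5, and rows with no start-site anchor gave 7 (5 kept). Rows with a start-site anchor gave 15 (12 kept), and rows with both anchors inside the window gave 23 (12 kept). TMM-scaled totals gave 25, including all 17.

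The 54 loops called higher became 1 with the window's own counts as the library size, 6 by DESeq2, and 9 to 74 when 1 library was left out, lowest without B6 replicate 1 and highest without D2 replicate 2. The 128 anchors became 71 without a count minimum, 50 by DESeq2, and 57 to 151 when 1 library was left out, again lowest without B6 replicate 1 and highest without D2 replicate 2. The top loop of the Bbx window turned from 0.47 to -0.13 with the window's own counts and, when 1 library was left out, ran from -0.048 without B6 replicate 2 to 1.31 without B6 replicate 1. Calls over the whole table changed too, so the changes in calls are not particular to the 17 windows. Window scaling called 0.156% of all loops higher, beside 0.492% in the main fit. The share of all anchors went from 2.67% to 0.652% without a count minimum and 0.459% by DESeq2. When 1 library was left out, calls over all loops and all anchors were most numerous without D2 replicate 2. They were fewest without B6 replicate 1 for loops and without D2 replicate 1 for anchors. The cause of these changes was not tested.

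With the replicate number as a block, 17 windows, 48 loops and 137 anchors were called higher in D2, beside 14.3%, 0.396% and 3.60% of all. Deviations of libraries with the same number correlated at -0.12 over all windows, 0.007 over anchors and -0.001 over loops. Within the 17 windows the values were 0.17 over windows, 0.03 over anchors and -0.03 over loops. Such correlations cannot show whether libraries of the same number were handled together. With the numbers crossed as a block, added after seeing the data, edgeR called 17 windows and 137 anchors higher, beside 8.30% and 2.77% of all. It called 0 loops of the windows and 0 of all 108034 loops, so that 0 is not particular to the windows. At an unadjusted p under 0.05 the same fit gave 158 loops higher, beside 3.67% of all loops.

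With 2 lines per strain the spread rests on few libraries, loops under 20 counts were not tested one by one, and the 1000-count minimum leaves out sparse windows.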
